A study of Mus musculus with 14 samples.

Results

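Marker genes of Bergmann glia and astrocytes were measured in RNA sequencing (RNA-seq) libraries of granule neuron progenitors (GNPs), which divide in the external granule layer of the cerebellum. The 33 genes were chosen by name as markers of these glia, with earlier results of these data known, and they are 33 of the 41381 genes in the table. All 33 had at least 1 TPM (a length-corrected share of all transcripts in a library) in at least 4 of the 14 libraries and were among the 17325 genes tested. The GNPs were isolated by density gradient from mouse cerebella at postnatal day 7 in a study of the chromatin remodeller Chd7. Mice with floxed Chd7 alleles but no Cre gave the WT libraries (n = 5). Het libraries (n = 5) were Atoh1-Cre::Chd7 f/+, with 1 floxed allele, and Hom libraries (n = 4) were Atoh1-Cre::Chd7 f/f. The labels of 7 libraries give only wild type, het or hom for Chd7 and the strain as C56Bl6/J, and those of the other 7 give the Cre and C57BL/6. Atoh1-Cre acts in the granule cell lineage, so the deletion was not aimed at the glia. Every library is labelled as GNPs, and the labels give no purity. They also do not say whether a library came from 1 pup or several, so the p-values measure the spread between these libraries. Sequencing was done in 2 batches, the first with 8 libraries (WT 1, 2 and 3, Het 1, 2 and 3, Hom 1 and 2) and the second with the other 6.

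Bergmann glia are the radial astroglia of the cerebellar cortex. Their cell bodies lie in the Purkinje cell layer, and their fibres cross the molecular layer to the pial surface, where they guide granule cells migrating inward from the external granule layer. Like other astrocytes they take up glutamate, convert it to glutamine, buffer ions and water, and secrete lipoproteins and matrix proteins. In a GNP preparation the transcripts of such markers come from any astroglial cells that were carried along, and for the less specific markers also from other cells. In bulk RNA, fewer cells of a type and less RNA per cell cannot be told apart.

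The proximal promoters of 4 of these genes are shown because 3 are the defining markers of the list and the fourth, Fabp7, had the lowest change in batch 1. They are Gdf10, a growth factor of the BMP family that marks Bergmann glia, Slc1a3, the glial glutamate transporter GLAST, Gfap, the astrocyte intermediate filament, and Fabp7, the brain lipid-binding protein of radial glia. The sequences are RefSeq windows on GRCm38.p6, 250 bases before the start of transcription, 5′ to 3′ on the gene's strand, and the Fabp7 window stops after 208 bases, where GENCODE places the first exon. The RefSeq start used for Gfap lies inside the longer GENCODE gene. Capitals mark matches to 3 of 6 motifs searched on both strands, a match on the other strand being printed as its reverse complement, namely the SOX core ACAAT, a STAT site (TTC and GAA spaced by 3 bases) and the TATA box TATAAA, and none of the matches shown overlap.
Gdf10, chr14:33923337-33923586, plus strand: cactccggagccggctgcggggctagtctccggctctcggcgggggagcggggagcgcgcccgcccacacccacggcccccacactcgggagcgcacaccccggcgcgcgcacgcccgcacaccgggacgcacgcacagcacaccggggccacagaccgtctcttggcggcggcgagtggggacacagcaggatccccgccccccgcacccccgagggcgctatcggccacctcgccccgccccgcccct
Slc1a3, chr15:8710808-8711057, minus strand: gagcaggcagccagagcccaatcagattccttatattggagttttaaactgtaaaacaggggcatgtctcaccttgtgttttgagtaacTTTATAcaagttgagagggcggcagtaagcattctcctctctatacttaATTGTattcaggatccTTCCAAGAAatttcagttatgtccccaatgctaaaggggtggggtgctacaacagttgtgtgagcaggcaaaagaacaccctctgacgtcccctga
Gfap, chr11:102897201-102897450, minus strand: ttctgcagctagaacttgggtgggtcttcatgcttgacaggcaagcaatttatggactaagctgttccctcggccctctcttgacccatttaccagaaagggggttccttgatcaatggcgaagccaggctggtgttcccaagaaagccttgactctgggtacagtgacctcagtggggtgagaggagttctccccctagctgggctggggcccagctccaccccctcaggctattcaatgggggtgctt
Fabp7, chr10:57784673-57784880, plus strand: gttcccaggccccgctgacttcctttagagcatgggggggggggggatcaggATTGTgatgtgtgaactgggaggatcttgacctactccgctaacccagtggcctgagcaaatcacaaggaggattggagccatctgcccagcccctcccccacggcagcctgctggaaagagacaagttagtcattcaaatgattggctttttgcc

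The Slc1a3 window held 1 match each to the STAT, SOX and TATA letters, the Fabp7 window 1 SOX match, and the Gdf10 and Gfap windows none. The Gdf10 window was 78.8% G and C and the Slc1a3 window 44.8%, so their base composition differed. RefSeq held windows for 28 of the 33 genes (35 windows in all). The SOX letters lay in 7 of these 35 windows and in 27.7% of all 32851 promoter windows of the same length. The STAT letters lay in 5.71% and 7.02%, and the TATA box in 7 windows and in 12.4% of all. The other 3 motifs were the shorter NFI site TTGGCA, in 11.4% of the windows of these genes and 12.3% of all, the RBPJ site GTGGGAA, in 5.71% and 5.42%, and the full NFI palindrome (TTGGC and GCCAA spaced by 5 bases), in 0.0% and 0.0365%. A match is a description of the letters and not of binding.

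Chd7 itself had TPM values of 120.81, 151.68, 132.41, 203.25 and 272.06 across WT 1 to 5, of 165.77, 181.3, 150.35, 149.36 and 136.77 across Het 1 to 5, and of 172.49, 185.39, 149.87 and 125.63 across Hom 1 to 4. In batch 1 both libraries labelled Hom therefore lay above all 3 libraries labelled WT, against the direction the labels give, and in batch 2 both lay below. Over both batches its log2 change in Hom was -0.11 (adjusted p 0.862). Gene-level TPM also takes in reads outside the floxed part of the gene. Neurod1, a transcription factor of granule neurons, was chosen after its values were seen. It separated Hom from WT in both batches, at 501.42 to 595.69 TPM in the Hom libraries and 679.3 to 1031.57 TPM in WT. The Het libraries, at 753.11 to 875.62 TPM, lay within this WT range. Directions below rest on the labels. Of the libraries, WT 1 to 3 and Het 3 stood apart in their content of other cells. The mean log2(TPM + 1) of 14 endothelial and mural markers was 1.45 to 2.18 in these 4 libraries and 3.11 to 4.98 in the other 10, and no marker of that list other than Ly6c1 in Het 3 was listed at 0. Their summed level was 32.4 to 66.3 TPM against 160 to 660 TPM. Slco1a4 of this list did not separate the 4, at 7.74, 8.92 and 9.28 TPM in WT 1 to 3, 2.61 in Het 3 and 2.47 to 16.8 in the rest. For 11 Purkinje cell markers the same mean was 3.38 to 3.97 against 2.62 to 3.07, with Pcp2 at 27.84, 30.62, 18.53 and 15.10 TPM in the 4 and between 0.00 and 5.16 in the rest. The summed level of the Purkinje list overlapped (269 to 365 against 193 to 312 TPM), and Skor2 was listed at 0 in 7 of the other 10 libraries. Not every gene of this list separated the 4 as Pcp2 did, since Ppp1r17, Rora, Foxp2, Lhx1 and Lhx5 overlapped. Lhx5 tended the other way, at 18.28 to 23.9 TPM in the 4 and 22.3 to 47.4 in the rest. Since 3 of the 4 are all the WT libraries of batch 1, this difference in content and the genotype cannot be told apart within batch 1.

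All 33 markers were present in every library. The lowest value was 1.22 TPM and the highest 1033.27 TPM. Together they held 0.206% of all TPM in WT 5, the lowest library, and 0.515% in WT 2, the highest. For comparison, 12 markers of GNPs held 0.334% to 0.442%. The mean log2(TPM + 1) over the 33 genes was 5.87, 6.14, 5.48, 5.71 and 4.81 across WT 1 to 5. It was 5.12, 5.54, 5.51, 5.45 and 5.41 across Het 1 to 5, and 5.01, 5.37, 4.98 and 5.67 across Hom 1 to 4. The WT libraries thus spanned the whole range, with both the highest and the lowest library among them, and the 3 genotypes overlapped. WT 2 had the highest value of all libraries for 24 of the 33 genes, against 6.74% of all genes tested, and WT 5 had the lowest of the 6 batch 2 libraries for 19 of them, against 21.4% of all genes.

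**Figure D1:**
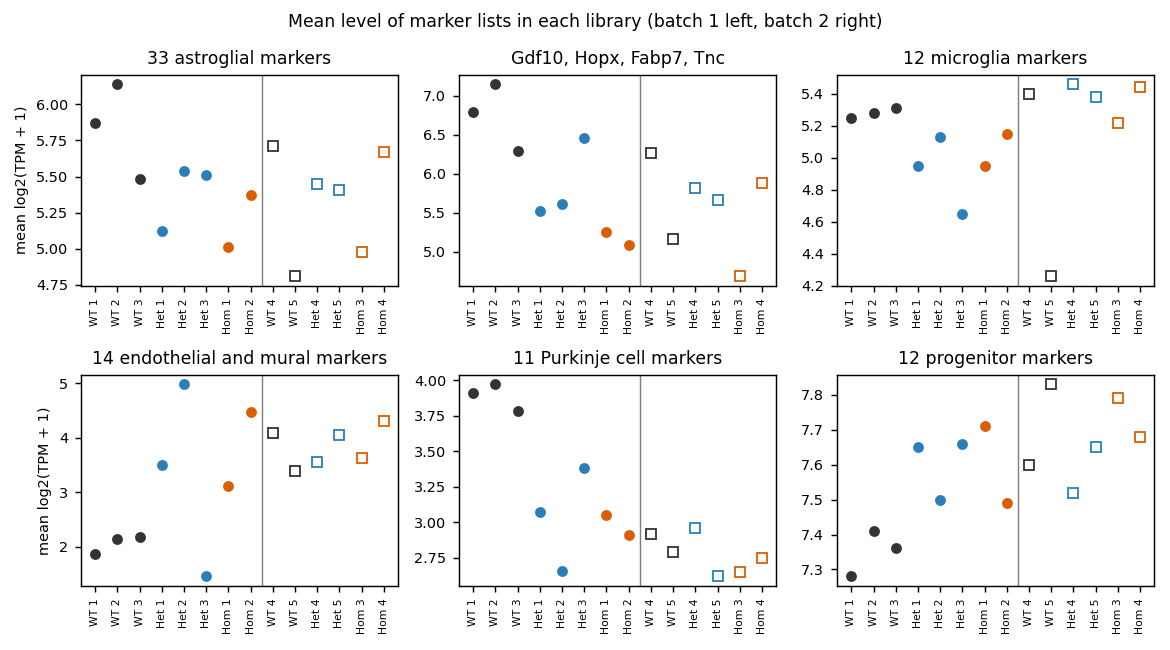
Mean log2(TPM + 1) of 6 marker lists (y axis) in each of the 14 libraries (x axis), black for WT, blue for Het and orange for Hom, with filled circles for batch 1 and open squares for batch 2. The 33 astroglial markers ran from 4.81 in WT 5 to 6.14 in WT 2, microglia markers were also lowest in WT 5 (4.26), and WT 1 to 3 and Het 3 had the 4 lowest endothelial and the 4 highest Purkinje cell levels.

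The question put to these genes was whether they differed between genotypes by more than between libraries of 1 genotype. In the limma fit with genotype and batch, 0 of the 33 were called in Hom against WT at an adjusted p under 0.05, where 1.41% of all genes tested were called lower and 1.27% higher. Before adjustment, 10 of the 33 had a p under 0.05 and were lower in Hom (background 6.42%), and 2 were higher (8.51%). The 10 were Gdf10, Hopx, Fabp7, Tnc, Slc1a3, Vim, Aqp4, Slc4a4, Timp4 and Aldh1l1, and the 2 were Ntsr2 and Slc6a11. The median log2 change of the 33 genes was -0.33, beside 0.024 for all genes tested, and 24 of the 33 changes were below 0. Leaving out 1 library added calls in the lower direction only for WT 5 and Hom 4, the lowest WT and the highest Hom library for these genes. Without WT 5, 17 genes were lower at an unadjusted p under 0.05 (6.41% of all genes in that fit) and 6 were called lower (1.13%), namely Hopx, Fabp7, Slc1a3, Aqp4, Timp4 and Aldh1l1. Without Hom 4, 4 were called lower (0.929%), namely Hopx, Tnc, Slc1a3 and Vim. With any other library left out, none was called lower, and the median change lay between -0.38 (without WT 3) and -0.15 (without Hom 1).

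Grouped by role, the 4 markers of Bergmann glia identity had the lowest median change, -1.08 in Hom against WT, and each was below 0. Gdf10 (GRCm38 chromosome 14, 33923587 to 33937983, plus strand) had TPM values of 69.85, 106.97, 51.16, 82.73 and 31.98 across WT 1 to 5. They were 36.01, 42.67, 63.50, 57.92 and 47.22 across Het 1 to 5, and 34.31, 27.13, 23.64 and 61.95 across Hom 1 to 4. Hom 1 to 3 lay in a narrow low range together with WT 5, while Hom 4 reached the middle of the WT range. WT averaged 68.5 ± 28.8 (SD, n = 5), Het 49.5 ± 11.2 (SD, n = 5) and Hom 36.8 ± 17.4 (SD, n = 4), and the log2 change in Hom was -0.87 (SE 0.34, limma adjusted p 0.243).

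Fabp7 (chromosome 10, 57784881 to 57788450, plus strand) was the third most abundant of the 33 by its median of 292 TPM. Its values were 973.09, 978.53, 669.80, 345.82 and 176.03 across WT 1 to 5, 293.73, 289.41, 593.02, 304.92 and 246.07 across Het 1 to 5, and 236.96, 221.62, 143.75 and 280.19 across Hom 1 to 4. The 4 libraries at 593.02 TPM or more were WT 1 to 3 and Het 3, the same that stood apart by their Purkinje and endothelial markers, and all other libraries of the 3 genotypes lay between 143.75 and 345.82. The log2 change was -1.20 in Hom (SE 0.35, adjusted p 0.108), while Het had -0.67 (SE 0.33, adjusted p 0.840). Hopx, a homeodomain cofactor of radial glia, was also high in these 4 libraries, at 43.67, 51.89, 29.33 and 35.07 TPM, but WT 4 had 25.27 and the other 9 had 7.26 to 17.46. Its change was -1.23 in Hom (SE 0.33, adjusted p 0.0745). Tnc, the extracellular matrix glycoprotein tenascin C, had a change of -0.97 (SE 0.32, adjusted p 0.164).

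**Figure D2:**
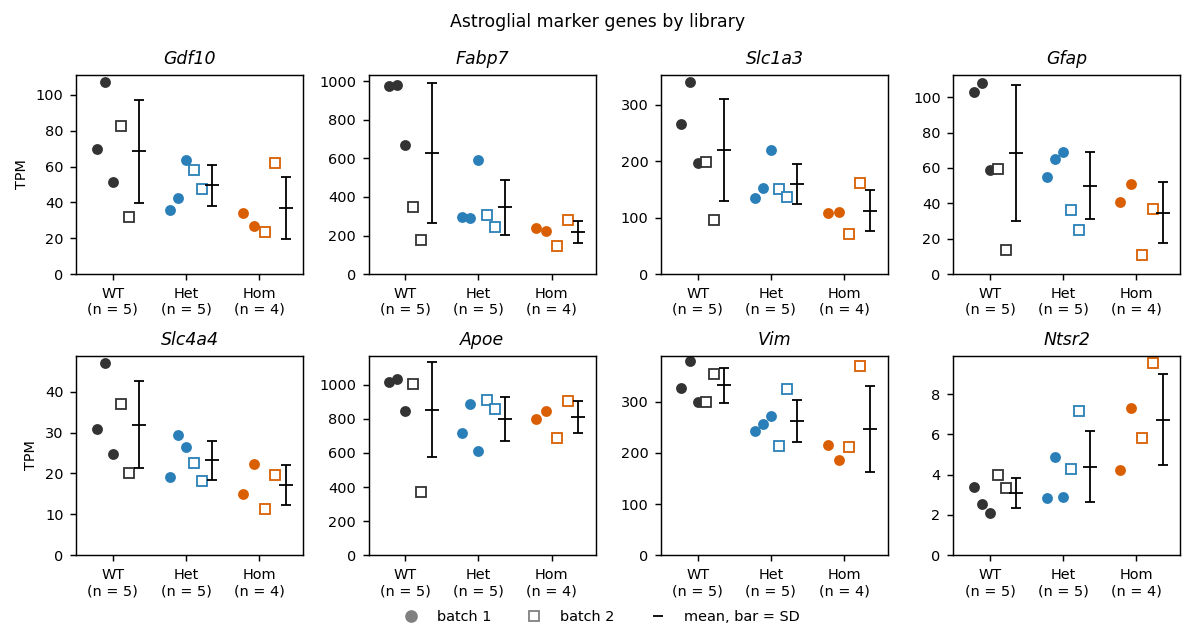
TPM (y axis, from 0) of 8 astroglial markers in each library of the 3 genotypes (x axis), with filled circles for batch 1, open squares for batch 2 and a bar for the mean and SD. Fabp7 was at 593.02 TPM or more in WT 1 to 3 and Het 3 only, Apoe was lowest in WT 5, and Ntsr2 was the gene with every Hom library above every WT library.

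Among the genes of glutamate handling, Slc1a3 (chromosome 15, 8634124 to 8710764, minus strand) had TPM values of 266.07, 340.46, 197.87, 198.99 and 95.80 across WT 1 to 5. The values were 134.41, 153.07, 220.52, 150.68 and 137.39 across Het 1 to 5, and 108.28, 109.53, 71.47 and 161.65 across Hom 1 to 4. Each Hom library lay below WT 1 to 4, and WT 5 lay below 3 of the 4. WT averaged 220 ± 90.8 (SD, n = 5), Het 159 ± 35.2 (SD, n = 5) and Hom 113 ± 37.1 (SD, n = 4). The log2 change in Hom was -0.86 (SE 0.29, adjusted p 0.161). Slc1a2, the second glial glutamate transporter, and Glul, glutamine synthetase, varied much less, with highest values 1.76 and 1.51 times the lowest over all libraries. Their changes in Hom over both batches were -0.13 (SE 0.12) and 0.00737 (SE 0.11), both within the spread between libraries. In batch 1, however, Slc1a2 in both Hom libraries (45.77 and 47.02 TPM) and all 3 Het libraries (41.27 to 50.63) lay below WT 1 to 3 (57.15 to 59.26). In batch 2 Hom (42.23 and 52.56) and WT (46.39 and 41.17) overlapped.

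Gfap (chromosome 11, 102887336 to 102900912, minus strand) was the most variable of the 33 genes, with a highest value 9.99 times the lowest. It had 102.67, 107.90, 58.96, 59.35 and 13.84 TPM across WT 1 to 5, 55.11, 64.83, 69.04, 36.16 and 25.01 across Het 1 to 5, and 40.96, 50.77, 10.80 and 36.66 across Hom 1 to 4. Batch 1 libraries held the upper end and batch 2 the lower end in each genotype, save that WT 4 (59.35) lay just above WT 3 (58.96). Gfap was the single member called between the batches, lower in batch 2 by a log2 change of -1.25 (SE 0.31, adjusted p 0.0208), where 5.61% of all genes were called lower and 7.88% higher. Its change in Hom was -0.74 (SE 0.39, adjusted p 0.404), while Het had -0.26 (SE 0.36, adjusted p 0.945). Vim, the intermediate filament vimentin of radial glia and also of vascular and meningeal cells, had a change of -0.49 in Hom (SE 0.17, adjusted p 0.179). Hom 4, at 370.92 TPM, lay above all libraries but WT 2, and the other Hom libraries had 185.46 to 215.83 TPM.

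The gap junction genes had changes above 0 over both batches. Gja1, a connexin, had a change of 0.0353 in Hom (SE 0.19), although in batch 1 both Hom libraries (41.97 and 45.42 TPM) lay below all 3 WT libraries (50.70 to 57.89). Gjb6 (chromosome 14, 57123303 to 57133611, minus strand), a second connexin, was among the 3 lowest markers. It had 6.10, 8.94, 5.16, 6.29 and 1.65 TPM across WT 1 to 5, 5.45, 7.80, 2.87, 3.56 and 7.22 across Het 1 to 5, and 4.58, 8.28, 4.29 and 9.63 across Hom 1 to 4. The 3 genotypes overlapped throughout, and the change was 0.29 in Hom (SE 0.37, adjusted p 0.775), while Het had -0.00572 (SE 0.35, adjusted p 0.999). For both genes the lowest library was WT 5 and the highest Hom 4.

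Of the 7 genes of water, ion and amino acid transport, 6 had changes below 0 and the median was -0.37. Slc4a4, a sodium bicarbonate cotransporter, had 30.85, 47.04, 24.66, 37.03 and 20.10 TPM across WT 1 to 5 and 15.02, 22.34, 11.35 and 19.70 across Hom 1 to 4. It was the only member with every Hom library below every WT library of its own batch in both batches, which 3.56% of all genes tested did. Its change was -0.82 (SE 0.23, adjusted p 0.0862), and within the batches it was -0.81 and -0.83. Aqp4, the water channel of astrocyte endfeet, had a change of -0.81 (SE 0.34, adjusted p 0.277), and Mlc1, a membrane protein of astrocyte junctions, one of -0.50 (SE 0.27). Ttyh1, Slc7a10 and Atp1b2 had changes of -0.34, -0.37 and -0.0856. In the opposite direction, Slc6a11, a GABA transporter, was at 0.48 (SE 0.19, adjusted p 0.262), with means of 18.4 ± 4.84 (SD, n = 5) TPM in WT and 26.0 ± 5.26 (SD, n = 4) in Hom.

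The secreted proteins included the 2 most abundant of the 33 genes. Apoe (chromosome 7, 19696109 to 19699188, minus strand), the lipoprotein of glia and also of microglia, had 1014.06, 1033.27, 847.88, 1001.35 and 372.47 TPM across WT 1 to 5. It had 715.30, 889.48, 612.23, 912.27 and 856.55 across Het 1 to 5 and 797.77, 847.61, 687.13 and 906.54 across Hom 1 to 4. WT 5 was far below all others. WT 3 lay among the Het and Hom values, while WT 1, WT 2 and WT 4 lay above every Het and every Hom library. The change was 0.0218 in Hom (SE 0.25, adjusted p 0.983), while Het had -0.0246 (SE 0.24, adjusted p 0.992). The value near 0 in Hom rested on WT 5, without which it was -0.30. Cst3 (chromosome 2, 148871722 to 148875692, minus strand), the protease inhibitor cystatin C, had 387.08, 330.78, 311.31, 369.98 and 233.86 TPM across WT 1 to 5, 237.58, 329.20, 267.02, 348.51 and 332.22 across Het 1 to 5, and 259.79, 321.29, 317.44 and 363.67 across Hom 1 to 4. Its change was -0.0483 in Hom (SE 0.15, adjusted p 0.929), while Het had -0.10 (SE 0.14, adjusted p 0.945), and the genotypes overlapped.

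Itih3 (chromosome 14, 30908572 to 30923760, minus strand), a heavy chain of the inter-alpha-trypsin inhibitor, was the least abundant member, at 2.73, 6.52, 3.26, 5.40 and 1.22 TPM across WT 1 to 5. It had 1.78, 3.70, 3.69, 4.18 and 3.72 across Het 1 to 5 and 2.47, 3.21, 3.70 and 4.53 across Hom 1 to 4. The WT libraries again enclosed all others, and the change was -0.0138 in Hom (SE 0.32, adjusted p 0.990), while Het had -0.0361 (SE 0.30, adjusted p 0.991). Sparcl1, an extracellular matrix protein also made by vessels, was at -0.33 in Hom (SE 0.28) and Clu, clusterin, at 0.0409 (SE 0.31). Timp4, an inhibitor of matrix metalloproteases, stood lower than the rest of this role at -0.72 (SE 0.27, adjusted p 0.218), from 27.2 ± 10.6 (SD, n = 5) TPM in WT to 15.1 ± 3.57 (SD, n = 4) in Hom.

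The 4 chondroitin sulphate proteoglycans Bcan, Ncan, Cspg5 and Ptprz1, which are also made by oligodendrocyte precursors, had a median change of 0.00 in Hom, with 2 below 0 and 2 above. Bcan, brevican, had 25.92 TPM in Het 1 and 21.76 in Hom 1, and 63.48 to 66.25 in Hom 2 to 4. The oligodendrocyte lineage list moved alongside, with a mean log2(TPM + 1) of 4.99 in Het 1 and 4.91 in Hom 1, its 2 lowest libraries, and 6.15 to 6.34 in Hom 2 to 4. The part of these cells in the Bcan values was not tested.

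The last role, metabolism, calcium binding and receptors, held both a low and a high change. Aldh1l1, the folate enzyme used as a pan-astrocyte marker, had 55.54, 63.39, 33.80, 37.42 and 18.36 TPM across WT 1 to 5, and 19.48, 12.48, 13.10 and 25.72 across Hom 1 to 4. Its change was -1.10 (SE 0.33, adjusted p 0.112). S100b, Ndrg2 and Gpr37l1 had changes of -0.37, -0.14 and -0.55, each with an adjusted p of 0.421 or more. Ntsr2 (chromosome 12, 16653382 to 16660227, plus strand), a neurotensin receptor of astrocytes, went the other way. It had 3.41, 2.56, 2.09, 4.0 and 3.34 TPM across WT 1 to 5, 2.82, 4.87, 2.89, 4.26 and 7.17 across Het 1 to 5, and 4.24, 7.31, 5.84 and 9.54 across Hom 1 to 4. Every Hom library lay above every WT library, both overall and in each batch (5.44% of all genes tested did so within both batches).

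The change of Ntsr2 was 0.85 in Hom (SE 0.21, adjusted p 0.0507), while Het had 0.37 (SE 0.20, adjusted p 0.842). It missed the threshold in the fit reported here and passed it with median-ratio scaling (0.83, adjusted p 0.0441), with quantile normalization (0.81, adjusted p 0.0246), and with a pseudocount of 0.1 or 0.5. It also passed without Het 2 (adjusted p 0.0482), without Het 5 (adjusted p 0.0436) or without Hom 3 (adjusted p 0.0389). These were 7 of 26 alternatives, and in the others it missed the threshold. Over all 26 the change ran from 0.71 to 1.02 and the limma adjusted p from 0.0246 to 0.2. The highest was with endothelial and Purkinje marker levels as covariates. Within batch 1 its change was 0.86 and within batch 2 0.87. At a few TPM the log2(TPM + 1) scale understates the change, and the means were 3.08 ± 0.754 (SD, n = 5) TPM in WT and 6.73 ± 2.25 (SD, n = 4) TPM in Hom.

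**Figure D3:**
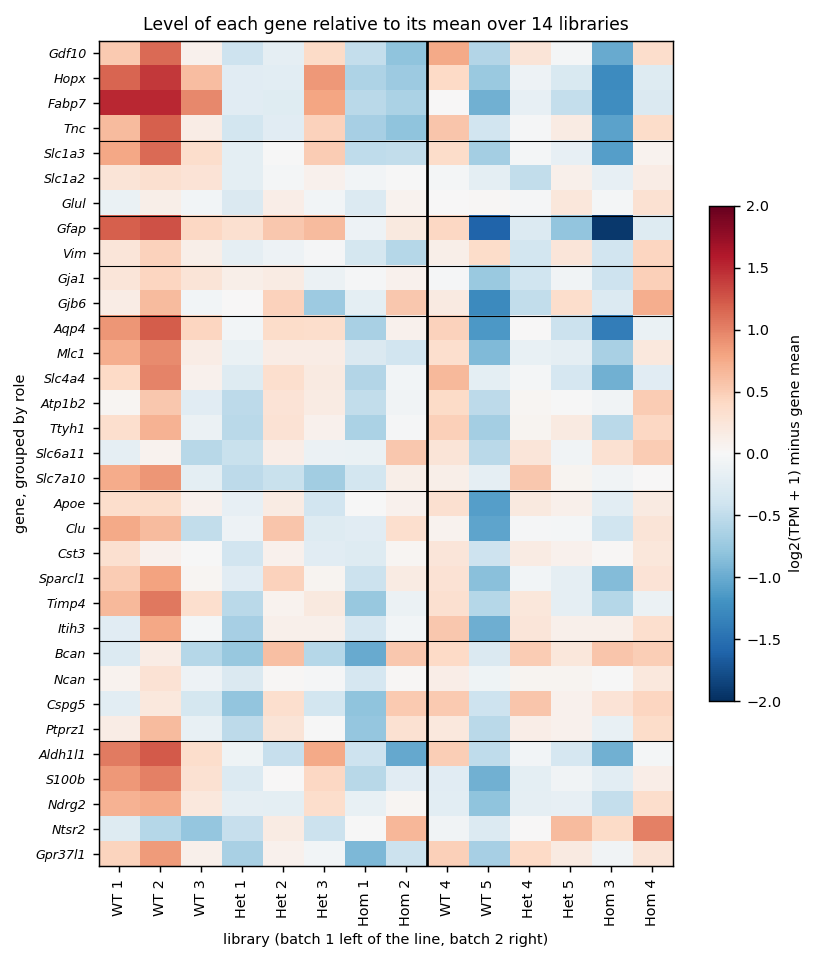
Colour shows log2(TPM + 1) of each of the 33 genes (rows, grouped by role) minus its own mean over the 14 libraries (columns, batch 1 left of the line), red for above and blue for below. WT 1 and WT 2 were above the mean for most genes, WT 5 was below it for most, and the Hom libraries did not form a uniform block.

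In Het against WT, 0 of the 33 genes were called, where 0.0% of all genes were called lower and 0.00577% higher. Before adjustment, 1 member had a p under 0.05 and was lower in Het (Vim, log2 change -0.35, SE 0.16), against a background of 2.88%, and 0 were higher (3.2%). Without WT 5, 15 were lower, where 3.23% of all genes were, and with any other library left out 0 to 4 were. The median change was -0.20, beside 0.007 for all genes, and 27 of the 33 changes were below 0. Hom and Het are each set against the same WT libraries, so these values are not independent of those in Hom. Gdf10 was at -0.38 in Het (SE 0.32, adjusted p 0.891) and Slc1a3 at -0.37 (SE 0.27, adjusted p 0.877). In Hom against Het, 0 of 33 were called, against 0.277% of all genes lower and 0.15% higher. There the median was -0.06, and 1 member, Ntsr2, was higher in Hom at an unadjusted p under 0.05 (0.49, SE 0.21), as were 3.05% of all genes, while 0 members and 3.13% of all genes were lower. Without Hom 4, 9 members were lower in Hom at that threshold, and 2.67% of all genes, and with any other library left out 0 to 2 members were. The limma F test over the 3 genotypes put 2 of the 33 under an unadjusted p of 0.01, Hopx and Ntsr2, against 4.39% of all genes. An exact Kruskal-Wallis test after removal of the batch term put 1 there, Ntsr2 (exact p 0.00757), while Hopx had an exact p of 0.0173. It was run on the 33 genes only, so no share of all genes stands beside this count. Its arrangements moved libraries across batches and made no allowance for the estimated batch term, so these p-values are approximate.

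The batches were then taken apart. The Hom levels of the list overlapped between them (5.01 and 5.37 in batch 1, 4.98 and 5.67 in batch 2, as mean log2(TPM + 1)), and the WT levels were 5.48 to 6.14 in batch 1 and 4.81 and 5.71 in batch 2. Within batch 1 (3 WT, 3 Het and 2 Hom libraries) the median Hom change of the 33 genes was -0.60, with 30 of 33 below 0. Within batch 2 (2 of each) it was 0.11, with 12 below 0. The medians of all genes tested were 0.019 and 0.034. In batch 1, 2 members were called lower (background 0.456%), Fabp7 with -1.90 (SE 0.32, adjusted p 0.0443) and Vim with -0.74 (SE 0.11, adjusted p 0.0345), and 0 were called higher (0.479%). Both calls were lost when any of WT 1, WT 2, Het 1, Het 2, Hom 1 or Hom 2 was left out, and when genes above 0 TPM in at least 4 libraries were all tested. At an unadjusted p under 0.05, 17 members were lower in batch 1 (7.2%) and 1 was higher (7.27%). In batch 2, 0 were called in either direction (0.0231% lower and 0.0% higher). Before adjustment, 0 had a p under 0.05 in the lower direction (7.85%) and 1, Ntsr2, in the higher (8.13%).

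The ranges within each batch were also compared without a fit. In batch 1, 18 of the 33 genes had both Hom libraries below all 3 WT libraries, against 15.3% of all genes, and 1 had both above (17.6%). In batch 2, 1 gene, Slc4a4, had both Hom libraries below both WT libraries (21.9%), and 4 had both above, namely Slc6a11, Bcan, S100b and Ntsr2 (27.0%). In both batches, 1 gene lay below, Slc4a4, and 1 above, Ntsr2. S100b, a calcium-binding protein of astroglia, had opposite orders in the 2 batches. It had 32.86, 36.32 and 21.97 TPM in WT 1 to 3 and 11.68 and 14.89 in Hom 1 and 2, but 14.93 and 8.57 in WT 4 and 5 and 15.07 and 19.49 in Hom 3 and 4. Its change was -1.11 in batch 1 and 0.56 in batch 2.

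The difference itself was tested as an interaction of genotype and batch. It was above 0 for 32 of the 33 genes, with a median of 0.69 beside 0.007 for all genes, so Hom values stood higher against WT in batch 2. This was not particular to the 33 genes. Marker lists of microglia (0.78), the oligodendrocyte lineage (0.94), Purkinje cells (0.62) and meninges with choroid plexus (0.40) also had medians above 0. Those of endothelial and mural cells (-1.61), GNPs (-0.36), inhibitory interneurons (-0.32), granule neurons (-0.13) and red blood cells (-0.03) were below 0. At an unadjusted p under 0.05 the difference held for 4 of the 33 genes, Fabp7, S100b, Ndrg2 and Gpr37l1. This was a share of 12.1% against 8.35% of all genes, and limma called 0 of the 33. For S100b it was 1.67 (SE 0.41, adjusted p 0.131), and for Fabp7 1.61 (SE 0.56, adjusted p 0.192). Het, set against the same WT libraries, had a median of -0.38 in batch 1 and 0.15 in batch 2. In batch 1, 15 of the 33 were lower in Het at an unadjusted p under 0.05 (4.18%).

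**Figure D4:**
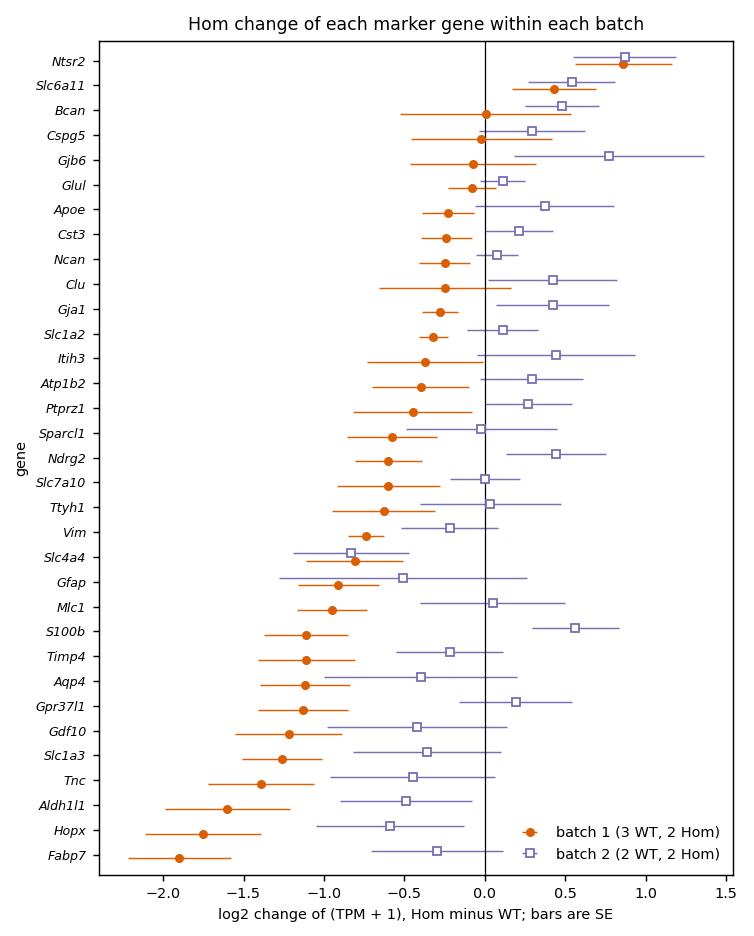
Log2 change in Hom minus WT (x axis, bars are SE) of each of the 33 genes (y axis, ordered by batch 1), within batch 1 in orange and within batch 2 in purple. In batch 1, 30 of the 33 points lie below 0, from -1.90 for Fabp7, and in batch 2 12 do, while Ntsr2 and Slc4a4 have nearly the same value in both.

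Libraries of 1 genotype and batch differed among themselves. For 30 of the 33 genes, the largest log2 difference between a pair of libraries of the same genotype and batch exceeded the size of the Hom change fitted over both batches, and the exceptions were Hopx, Fabp7 and Ntsr2. This is the largest of 10 such pairs set against a difference of group means, so it is a description and no test. The Hom change within batch 1 exceeded it for 7 genes, Hopx, Fabp7, Slc1a3, Timp4, Aldh1l1, S100b and Ntsr2. The median of the largest such ratio was 2.22. For 14 genes the pair was WT 4 over WT 5, which share genotype and batch. WT 5 lay below WT 4 for 31 of the 33 genes (47.1% of all genes tested), with the exceptions Glul and Vim, with a median ratio of 1.96. The ratio reached 4.43 for Itih3 and 4.29 for Gfap. WT 5 was also the lowest library for microglia markers (4.26 against 4.65 to 5.46 elsewhere) and the highest for GNP markers (7.83). The part of the remaining cell content in the low WT 5 values was not tested.

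Hom 3 and Hom 4, of batch 2, also differed. Hom 4 had 61.95 TPM of Gdf10 against 23.64 in Hom 3, and 161.65 TPM of Slc1a3 against 71.47. In Hom 4 all 33 genes lay above the values fitted for their genotype and batch, and in Hom 3 29 lay below. Het 3 lay above Het 1 and Het 2 for 12 of the 33 genes, a share of 36.4% that is near the 31.3% of all genes. These 12 included the 4 of Bergmann glia identity and Slc1a3, while its median ratio to the mean of Het 1 and Het 2 over all 33 genes was 1.09. Fabp7 was 2.03 times and Hopx 2.19 times that mean, whereas Gjb6 was 0.433 times.

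The measured cell content was set beside these results directly. With the levels of the endothelial and Purkinje lists as covariates, the median Hom change of the 33 genes was 0.15 in place of -0.33. At an unadjusted p under 0.05, 0 were then lower (8.25% of all genes) and 4 were higher (7.26%). Without WT 1 to 3 and Het 3 the median was 0.10, with 1 gene lower (9.04%) and 1 higher (8.77%) at that threshold, and then WT 4 and 5 were the only WT libraries left. Slc4a4 was at -0.57 with the covariates and at -0.81 without the 4 libraries, and Ntsr2 at 0.79 and 0.89, beside -0.82 and 0.85 with all libraries. No member was called in either fit. Whether the marker levels of batch 1 follow the genotype or the other cells in its WT libraries cannot be told apart.

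The 33 genes varied together once genotype and batch were taken out. Over the 14 libraries, the Pearson correlation of residual log2(TPM + 1) was above 0 for 522 of the 528 pairs, with a median of 0.69. These residuals share their libraries and the same fit, so the values are a description. The closest pairs were Gdf10 with Slc1a3 (0.979), Ncan with Ptprz1 (0.978) and Tnc with Slc1a3 (0.976). Against the mean of the other members, Ttyh1 had the highest value (0.97), followed by Aqp4 (0.96), and Vim the lowest (0.38), followed by Ntsr2 (0.52). The mean residual was -0.70 in WT 5, with 32 of 33 genes below the fit, and 0.48 in both WT 2 and Hom 4, with 32 and 33 genes above it.

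Outside the marker lists, 12062 genes with a mean of at least 5 TPM were compared with the mean residual of the 33. Among the most alike were Fgfr2 (r = 0.984), Pcsk6 (0.968), Dbndd2 (0.963), AI464131 (0.960), Gucy1a1 (0.951), Fam20c (0.949), Mmd2 (0.944), Tril (0.941) and Pld2 (0.936), and the median over all compared genes was -0.03. Fgfr2 encodes a fibroblast growth factor receptor. The changes of these 9 genes in Hom lay between -0.56 (Gucy1a1) and 0.18 (Fam20c), and none was called.

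A second list of 38 astroglial genes was also below the median of all genes in Hom. Before adjustment, a p under 0.05 was reached by 8 of its 36 tested genes in the lower direction (background 6.42%) and by 3 in the higher (8.51%), and the median change was -0.13, with -0.33 in batch 1 and 0.05 in batch 2. The 3 higher genes were Lfng, Slco1c1 and Grin2c. Slco1c1 split the libraries as the endothelial list did, at 2.2 to 5.1 TPM in WT 1 to 3 and Het 3 and 14.59 to 86.0 in the rest. The part of endothelial cells in its change was not tested. In batch 1, Pla2g7, a secreted phospholipase, was called lower (-1.21, adjusted p 0.0482). Slc25a18, a mitochondrial glutamate carrier, was at -0.80 (SE 0.22, adjusted p 0.0719) and Acsbg1, an acyl-CoA synthetase, at -1.02 (SE 0.31, adjusted p 0.115). The only gene of this list called over both batches was Grin2c, an NMDA receptor subunit that granule neurons also express. It was higher in Hom by 1.51 (SE 0.25, adjusted p 0.00465), with 0.572 ± 0.172 (SD, n = 5) TPM in WT and 3.62 ± 1.12 (SD, n = 4) in Hom.

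The marker lists of other cells had medians on both sides of 0 in Hom against WT. The endothelial and mural list had a median change of 1.31, with 0 of 14 called. Of the 14, 7 had an unadjusted p under 0.05 in the higher direction (background 8.51%). The Purkinje list had a median of -0.45, with 2 of 9 tested called lower (1.41% of all genes tested). Granule neuron markers had a median of -0.46, with 4 of 11 tested called lower (1.41%). GNP markers had one of 0.16, with 1 of 12 called higher (1.27%). The 5 red blood cell genes were all below 0, with a median of -0.80 and 0 called. Of the 5, 4 had an unadjusted p under 0.05 (background 6.42%). Their medians were -0.77 and -0.88 in the 2 batches. The part of these cells in the marker values of the glia was not tested. Microglia (0.05), the oligodendrocyte lineage (0.15), inhibitory interneurons (0.12) and meninges with choroid plexus (0.15) lay near 0 over both batches, and 0 of their genes were called. Their medians differed between batch 1 and batch 2, at -0.23 and 0.44 for microglia and -0.17 and 0.60 for the oligodendrocyte lineage. They were 0.39 and 0.00 for inhibitory interneurons and 0.02 and 0.38 for meninges with choroid plexus.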

How the data were processed

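RNA-seq libraries of GNPs were analysed from the gene-level table of TPM values that the authors deposited. Per the study's methods and processing notes, single-end reads were mapped to the mm10 transcriptome with Bowtie 1.0.0 and expression was estimated with RSEM 1.2.15, both at default parameters. TPM is a share of a fixed total and keeps no record of depth, so the depth of each library is unknown and no counting error was computed. Control columns were matched to WT by their number, 0 columns were left without a sample, and no pair of columns was identical. Sequencing batches were taken from the study's methods. Of the 41381 genes, 40340 were given a symbol by GENCODE M21, and all 33 members matched 1 row each.

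Genes reaching a TPM of 1 in 4 or more libraries (17325) were analysed as log2(TPM + 1) with limma 3.58.1 (R 4.3.3; lmFit and eBayes with trend), fitting genotype and batch over all 14 libraries. Two-sided p-values received the Benjamini-Hochberg adjustment across every gene tested. Called means an adjusted p under 0.05. Batches were also fitted alone, and their difference as an interaction. The study tested with a Kruskal-Wallis test after ComBat. Here an exact Kruskal-Wallis test over 252252 arrangements followed removeBatchEffect, and ComBat was not run. The fit was tested on simulated data. Replicate numbers were not taken as pairs, since the labels name nothing that they share and not every same-numbered pair deviated together (residual correlation over 0.1).

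The members and all other lists were chosen with earlier results of these data known. Genes described in full were Gdf10, Slc1a3 and Gfap, any member called between genotypes (there were none), and the 3 members with the highest and the 3 with the lowest median TPM. Other members are given by changes or counts, or in full where a result turned on them (Slc4a4, S100b and Aldh1l1, chosen after their values were seen). Promoters are RefSeq windows on GRCm38.p6. Of the 10 genes most like the list, 1 is not reported here.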

Additional observations from a re-analysis of the deposited data

Results flagged for a closer look

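In each genotype, the highest and the lowest library of each of the 33 genes were compared with the rest of their group on the log2(TPM + 1) scale. A library was flagged when its gap to the nearest other library took up more of the group's range than Dixon's 95% limit allows. This held in 9 of the 99 groups examined, where chance flags about 1 in 20. The 33 genes share their libraries and varied together, so the groups are not independent and the count is no test against that rate.

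In the Het group, 4 flags fell on Het 3, with Hopx at 35.07 TPM (other Het libraries 15.10 to 17.46), Fabp7 at 593.02 (246.07 to 304.92), Slc1a3 at 220.52 (134.41 to 153.07) and Ndrg2 at 72.14 (49.47 to 50.28). Het 3 is also the Het library with low endothelial and high Purkinje cell markers, and the part of this in the 4 values was not tested. Also in Het, Het 1 was low for Itih3 at 1.78 TPM (3.69 to 4.18) and for Ncan at 26.28 (32.11 to 33.89), and Het 2 was high for Clu at 27.83 (15.42 to 18.27). In the WT group Apoe was low in WT 5, at 372.47 TPM (847.88 to 1033.27). In the Hom group Bcan was low in Hom 1, at 21.76 TPM (63.48 to 66.25).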

How the results depend on the processing

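The counts of 0 members called in Het against WT and in Hom against Het were the same under every alternative run. The count of 0 whose Hom change differed between the batches was the same under the filters, pseudocounts, median-ratio scaling and quantile normalization and with each library left out, and it was not refitted with array weights, the covariates, the replicate block or 2 genotypes alone. In Hom against WT the count called lower was 2 with array weights (Hopx and Fabp7) and 1 (Slc4a4) with the replicate block, and 0 to 6 with each library left out in turn. The count called higher was 1 (Ntsr2) with median-ratio scaling, with quantile normalization and with a pseudocount of 0.1 or 0.5, and 0 to 1 with a library left out. The median Hom change ranged from -0.49 to -0.15 with a library left out, and moved to 0.15 with the endothelial and Purkinje covariates and to 0.10 without WT 1 to 3 and Het 3 (an alternative chosen after seeing the data). The median Het change, from -0.36 to -0.06 with a library left out, moved to 0.35 and 0.18 in these fits. The median in Hom against Het ranged from -0.20 to 0.08 with a library left out. Members called between the batches were 2 with array weights or a mean TPM of at least 5, 0 with the covariates, with the replicate block or without those 4 libraries, and 1 to 5 with a library left out. In batch 1 alone the 2 calls became 0 with all genes above 0 TPM in at least 4 libraries, and 0 to 2 with a library left out. The exact Kruskal-Wallis test gave 1 member where the limma F test gave 2.

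Of 698 values of 17 named members under the alternatives, 627 kept their direction and their side of the threshold and 51 changed sign. With the covariates the Het changes became 0.39 for Gdf10, 0.33 for Slc1a3, 0.52 for Gfap, 0.52 for Apoe, 0.17 for Cst3, 0.33 for Fabp7, 0.50 for Gjb6 and 0.58 for Itih3, and the Hom changes 0.0184 for Gfap, 0.22 for Cst3 and 0.61 for Itih3. Without WT 1 to 3 and Het 3 the Het changes became 0.0529 for Slc1a3, 0.0106 for Gfap, 0.48 for Apoe, 0.20 for Cst3, 0.12 for Fabp7, 0.57 for Gjb6 and 0.38 for Itih3, and the Hom changes 0.22 for Cst3 and 0.44 for Itih3. Apoe in Hom was -0.10 with array weights, -0.00926 with median-ratio scaling and -0.13 with the replicate block. Batches by label wording gave Het changes of 0.027 for Apoe and 0.0829 for Gjb6. For Gjb6 in Het, a pseudocount of 0.1 gave 0.0163, one of 0.5 gave 0.00381 and quantile normalization 0.00594. For Itih3 in Hom the 2 pseudocounts gave 0.0285 and 0.0037. With each library left out, Hom changes ranged from -0.30 to 0.15 for Apoe, from -0.21 to 0.0375 for Cst3, from -1.11 to -0.47 for Gfap, from -0.0342 to 0.50 for Gjb6, from -0.34 to 0.19 for Itih3, and Het changes from -0.32 to 0.0937 for Apoe, from -0.25 to -0.0209 for Cst3, from -0.98 to -0.52 for Fabp7, from -0.65 to -0.18 for Gdf10, from -0.60 to -0.0163 for Gfap, from -0.31 to 0.19 for Gjb6, from -0.34 to 0.18 for Itih3, from -0.61 to -0.22 for Slc1a3. The cause of these changes was not tested.

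Same-numbered libraries had residual correlations from -0.101 to 0.253, over 0.1 in 5 of 13 pairs, and 9 of 14 libraries correlated best with a library of their own number. The residuals were taken within genotype and batch, so where a group had 2 libraries they mirror each other. WT 4 with Het 4 and WT 5 with Het 5 therefore share the same value (0.109). Both counts are partly fixed by this and have no chance level beside them, so they are at most a hint of pairing. The labels name no shared litter or day and not every pair was over 0.1, so the numbers were not used as pairs. The replicate block changed no other call between genotypes. With 2 to 3 libraries of a genotype in a batch, and depth unknown, a change that missed the threshold was not shown to be absent.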
